A study of Mus musculus with 6 samples.

Results

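The 30 genes described here encode enzymes that make cholesterol and fatty acids, together with the transcription factors and membrane proteins that set their transcription. They were taken by gene symbol from a list of names, and all 30, which the files write in capitals (SREBF1, SCD1 and ACSS2 for Srebf1, Scd1 and Acss2), were among the 23282 gene rows of each library and among the 11712 rows that passed the filter on low counts. Their RNA was compared between JAG1-overexpressing and control Ink4a/Arf-/- astrocytes. JAG1 is a membrane ligand of NOTCH receptors, and Ink4a/Arf-/- astrocytes are mouse brain cells without the tumor suppressor locus that restrains their division. Every library, controls included, came from this Ink4a-/- murine astrocyte line, grown in medium with fetal bovine serum. The 3 control libraries came from cells transfected with pcDNA3.1-puro, an empty vector; their genotype label reads WT, which was taken to mean without added JAG1. The 3 JAG1-overexpressing libraries came from cells that received pcDNA3.1-JAG1-puro. The sources used here do not state whether the 3 libraries of a group were separate transfections, pools or clones, so that p-values measure only the spread between these libraries, which may be technical.

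Cholesterol is built from acetyl-CoA. The mevalonate pathway first makes isoprenoid units, which are joined into squalene, and a second series of enzymes closes the rings of squalene and trims the product to cholesterol. Fatty acid synthesis draws on the same acetyl-CoA, extends it to palmitate, and then elongates the chain and adds a double bond. Both routes are controlled by the transcription factors SREBP1 and SREBP2, which are made as membrane precursors. SCAP carries them from the endoplasmic reticulum for cleavage when sterols are scarce, and the INSIG proteins hold them back when sterols are plentiful. In the brain, astrocytes are a main source of the cholesterol and lipids that neurons use.

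The libraries were QuantSeq libraries, in which reads start near the 3' end of a messenger RNA, so that the count of a gene does not grow with the length of its transcript. Levels are given as normalized CPM, counts scaled to a common library size after TMM correction of the library totals, which lay between 14341634 and 20489062 reads. A count of 3 reads, taken as the limit of detection, corresponded to between 0.148 and 0.206 CPM; intervals and this limit cover counting error only. Jag1 itself stood at 10.3 ± 1.17 CPM (SD, n = 3) in control and 14.2 ± 0.862 CPM (n = 3) in JAG1-overexpressing libraries (log2 fold change 0.46 ± 0.11 SE, adjusted p = 0.00446, edgeR). Whether RNA made from the vector, whose 3' end may differ from that of Jag1, was counted in this row was not tested. These values therefore need not give the degree of overexpression. Of 9 astrocyte markers, Gfap and Aqp4 had no read in any library, Slc1a2 and Slc1a3 had at most 2, and the 5 that could be tested were all lower with JAG1. The summed level of these 9 was between 309.9 and 369 CPM in control and between 107 and 122 CPM with JAG1. Markers of other cell types were summed over lists in the same way, control first. They lay at 0.523 to 1.18 and 0.243 to 0.697 CPM for the oligodendrocyte lineage, 3.14 to 3.92 and 1.54 to 2.06 CPM for microglia, and 323 to 325 and 214 to 257 CPM for fibroblasts and mural cells. Endothelial markers summed to 0.148 to 0.322 and 0 to 0.121 CPM, and neuron markers to 96.8 to 107 and 58.3 to 61.4 CPM. Of the defining genes of these lists, Sox10, Mog, Lum and Syt1 had no read in any library. The sums do not speak for every gene: Col1a2 (log2 3.92), Map2 (1.03) and Cx3cr1 (0.82) rose while the sums of their lists were lower. The part of these shifts in the results below was not tested, and in bulk libraries fewer cells of a type and less RNA per cell cannot be told apart.

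The genes did not move as a block. With JAG1, 10 of the 30 rose, 5 fell and 15 did not pass the threshold of an adjusted p under 0.05. The 10 that rose were Pmvk, Idi1, Fdps, Lss, Sc5d, Srebf1, Insig1, Acss2, Scd1 and Scd2, and the 5 that fell were Hmgcs1, Fdft1, Sqle, Dhcr7 and Acly. The test was edgeR's quasi-likelihood test with Benjamini-Hochberg adjustment over all tested rows. Over all 11712 rows it called 55.1%, with 27.4% of the rows higher and 27.7% lower, beside 33.3% higher and 16.7% lower among the 30. By role, it called 57.1% of the mevalonate genes, 50.0% of those from squalene to cholesterol, 40.0% of the regulators and 57.1% of the fatty acid genes. The groups did not overlap for 18 of the 30 genes, with 12 higher and 6 lower in every JAG1-overexpressing library; among all tested rows 62.0% did not overlap. An exact permutation test of 3 against 3 libraries cannot give a two-sided p under 0.1. Only 2 of the 30, Acss2 and Scd1, were called with a change of at least 2-fold, whereas 13.9% of all tested rows were. The median log2 fold change of the 30 genes was 0.09, their median absolute change was 0.25, and the latter was 0.31 over all tested rows.

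**Figure D1:**
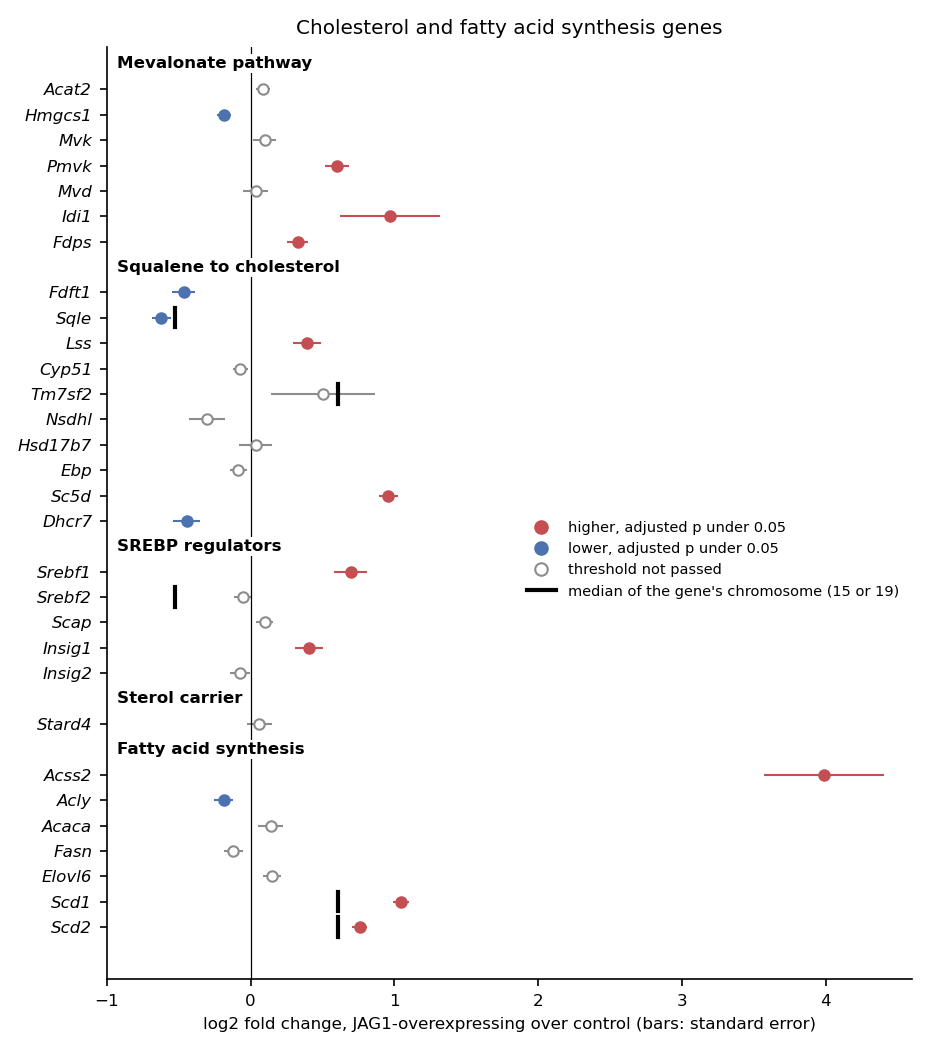
Log2 fold change of the 30 genes, JAG1-overexpressing over control, by role (points: fitted value; bars: standard error; n = 3 libraries a group). Red points rose, blue points fell and open points did not pass an adjusted p under 0.05; black ticks give the median of the tested genes of chromosome 15 (-0.53) or 19 (0.61) for the 5 genes that lie there, and Acss2, at 3.99, stands to the right of all others.

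Among the regulators of the pathway, the gene of one SREBP factor rose and that of the other did not pass the threshold. Srebf1, at chr11:60199084-60224186 (GRCm38), encodes SREBP1, which is best known for driving fatty acid genes. It stood at 18.9, 24.5 and 26.3 CPM in the control libraries and at 37.8, 34.7 and 40.2 CPM in the JAG1-overexpressing libraries. All JAG1-overexpressing libraries were above all control libraries, and Srebf1 rose 1.62-fold (log2 fold change 0.70 ± 0.11 SE, adjusted p = 0.000352, edgeR). Its exons overlap those of Rai1 on the opposite strand, which had 85 to 158 reads and also rose (log2 0.46, adjusted p = 0.0459, edgeR), and whether the counting used strand is not given in the sources used here. Srebf2, at chr15:82147269-82205379, encodes SREBP2, which mainly drives cholesterol genes. Its level was 145, 145 and 155 CPM in control and 149, 130.2 and 149.8 CPM with JAG1. These groups overlapped, with a log2 fold change of -0.05 ± 0.06 (adjusted p = 0.514, edgeR), which does not show that the levels were equal. In reads, Srebf1 made up 11.6%, 14.4% and 14.5% of the sum of both factors in the control libraries and 20.3%, 21.1% and 21.2% in the JAG1-overexpressing libraries. QuantSeq reads do not separate transcript isoforms of Srebf1 that share a 3' end, and RNA does not report the cleavage that makes either factor active.

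Insig1 rose while its paralog did not pass the threshold. Insig1, at chr5:28071412-28078662, encodes an anchor of the SCAP complex and is itself a known SREBP target. It was at 37.1, 34.9 and 36.1 CPM in control and at 46.8, 41.2 and 55.4 CPM with JAG1, a 1.33-fold rise (log2 0.41 ± 0.10, adjusted p = 0.00443, edgeR). The groups were separate, and the JAG1-overexpressing libraries were spread more widely, with SDs of 1.12 CPM in control and 7.14 CPM with JAG1. Insig2, the second anchor, lay between 52.5 and 58.2 CPM in control and between 50.3 and 54.7 CPM with JAG1 (log2 -0.07 ± 0.07, adjusted p = 0.368, edgeR). The read ratio of Insig2 to Insig1 was 1.41 to 1.67 in control and 0.964 to 1.33 with JAG1, without overlap. Scap, the escort protein, had a log2 fold change of 0.10 ± 0.06 (adjusted p = 0.188, edgeR), although its 3 JAG1-overexpressing libraries, at 67.3 to 72.1 CPM, were above the control libraries at 63.2 to 65.6 CPM.

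**Figure D2:**
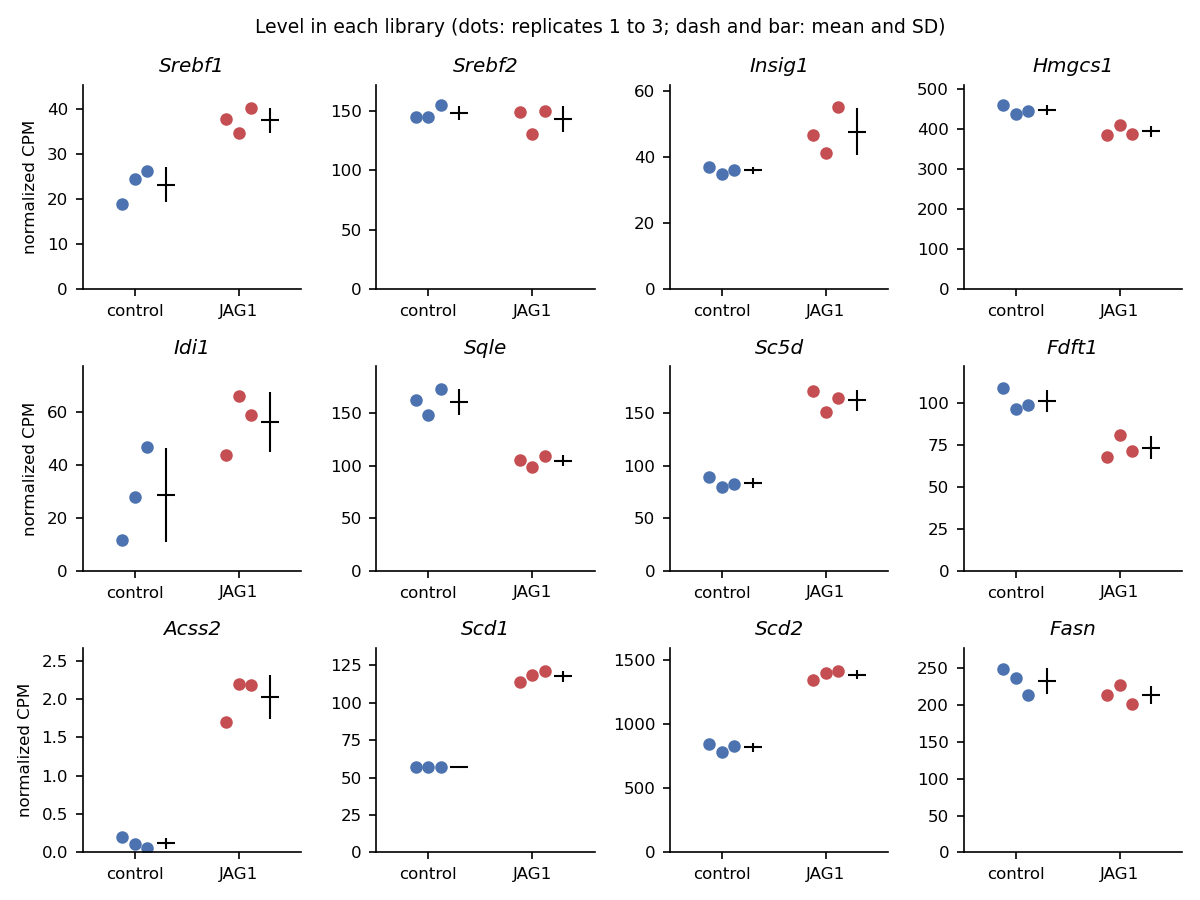
Normalized CPM (linear axes that start at 0) of 12 of the genes in each control (blue) and JAG1-overexpressing (red) library, with the mean (dash) and SD (bar) of the 3 libraries. Srebf1, Insig1, Sc5d, Acss2, Scd1 and Scd2 are higher and Hmgcs1, Sqle and Fdft1 lower in every JAG1-overexpressing library, while Srebf2, Idi1 and Fasn overlap between the groups.

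In the mevalonate pathway, 3 of 7 enzymes rose, 1 fell and 3 did not pass. The one that fell was the most abundant in reads. Hmgcs1, at chr13:119690351-119708260, makes HMG-CoA and is a classical SREBP2 target. It was at 461, 438 and 446 CPM in control and at 386, 409.7 and 388 CPM with JAG1, a 1.14-fold fall (log2 -0.19 ± 0.05, adjusted p = 0.00701, edgeR). Its change was small and the groups did not overlap. Acat2, the thiolase at the head of the pathway, was at 205, 194 and 189 CPM in control and at 206, 209 and 209 CPM with JAG1 (log2 0.09 ± 0.05, adjusted p = 0.158, edgeR). In the last 500 bases of its transcripts, 20.9% of the 50-base words occur in Acat3 as well, so that reads of this pair may have been shared, and the log2 fold change of Acat3 was 0.08.

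The kinases and the decarboxylase that follow differed among themselves. Mvk, mevalonate kinase, lay between 30.5 and 35.6 CPM in control and between 34.3 and 36.7 CPM with JAG1 (log2 0.10 ± 0.08, adjusted p = 0.310, edgeR). Pmvk, phosphomevalonate kinase, at chr3:89454541-89469014, was at 32.8, 26.7 and 30.1 CPM in control and at 44.8, 44.8 and 46.3 CPM with JAG1. The groups were far apart relative to their SDs of 3.06 and 0.872 CPM, and Pmvk rose 1.52-fold (log2 0.60 ± 0.08, adjusted p = 9.13e-05, edgeR). Mvd, the decarboxylase that makes isopentenyl diphosphate, lay between 61.1 and 77.5 CPM in control and between 65.3 and 73.2 CPM with JAG1, within the control range (log2 0.04 ± 0.09, adjusted p = 0.752, edgeR).

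Both enzymes at the end of the pathway rose, but share 3' sequence with other loci. Fdps, farnesyl diphosphate synthase, at chr3:89093588-89101967, was at 85.04, 81.0 and 92.1 CPM in control and at 109.5, 98.6 and 116 CPM with JAG1. It rose 1.26-fold without overlap of the groups (log2 0.33 ± 0.07, adjusted p = 0.00276, edgeR), and 74.0% of the words in its last 500 bases also occur in a predicted gene that overlaps it or in pseudogenes. Idi1, isopentenyl diphosphate isomerase, at chr13:8885606-8892396, had 236, 517 and 899 reads in control and 883, 961 and 969 reads with JAG1. In CPM these were 11.6, 27.7 and 47.0 against 44.0, 66.1 and 58.8, so that control library 3 lay above JAG1-overexpressing library 1, and the control SD of 17.7 CPM was large for a mean of 28.8 CPM. The fitted rise was 1.95-fold (log2 0.97 ± 0.35, adjusted p = 0.0348, edgeR). Without control library 1 the log2 fold change was 0.58 and without control library 3 it was 1.51, both called. The call was lost with DESeq2 (adjusted p = 0.143) and in edgeR without control library 2 (0.0926), JAG1-overexpressing library 2 (0.125) or JAG1-overexpressing library 3 (0.0971). For Idi1 43.2% of the words in the last 500 bases occur in pseudogenes, and how the counting treated reads with several matches is not given in the sources used here.

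From squalene to cholesterol, 2 of 10 enzymes rose, 3 fell and 5 did not pass. Fdft1, squalene synthase, at chr14:63145150-63181687, commits carbon to sterols. It was at 109, 96.4 and 98.5 CPM in control and at 67.7, 81.0 and 71.2 CPM with JAG1, a 1.38-fold fall without overlap (log2 -0.47 ± 0.08, adjusted p = 0.000361, edgeR). Its exons overlap those of Ctsb on the opposite strand, whose log2 fold change was 0.02 (adjusted p = 0.787). Sqle, squalene epoxidase, a rate-limiting enzyme of the pathway, at chr15:59315092-59331193, fell more than any other of the 30 genes. It was at 163, 148 and 173 CPM in control and at 106, 99.0 and 109.6 CPM with JAG1, a 1.54-fold fall (log2 -0.62 ± 0.07, adjusted p = 1.39e-05, edgeR). All control libraries were above all JAG1-overexpressing libraries, and most of its chromosome fell as well, as described further on. Lss, lanosterol synthase, which closes the rings, at chr10:76531565-76557139, was less abundant and rose. It was at 13.4, 15.2 and 13.2 CPM in control and at 19.5, 16.8 and 18.3 CPM with JAG1, 1.31-fold higher (log2 0.39 ± 0.10, adjusted p = 0.00560, edgeR).

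Of the enzymes that trim lanosterol, most did not pass the threshold. Cyp51, lanosterol demethylase and the most abundant of them in reads, lay between 274 and 306 CPM in control and between 269.8 and 278 CPM with JAG1 (log2 -0.07 ± 0.05, adjusted p = 0.284, edgeR). Its exons overlap those of Akap9 on the opposite strand, which fell (log2 -0.54, adjusted p = 0.000527, edgeR). Tm7sf2, a sterol reductase, was barely detected, with 24, 11 and 33 reads in control and 31, 19 and 35 reads with JAG1 (log2 0.50 ± 0.36, adjusted p = 0.254, edgeR). Its exons overlap those of Vps51 on the same strand, a gene with 254 to 429 reads that rose (log2 0.64, adjusted p = 0.000647), so that even these few reads are uncertain. Nsdhl, a sterol dehydrogenase on chromosome X, was at 17.2, 17.4 and 23.2 CPM in control and at 16.1, 14.3 and 16.3 CPM with JAG1. These groups did not overlap, but the difference missed the threshold (log2 -0.30 ± 0.12, adjusted p = 0.0571, edgeR), and it passed when control library 1 (adjusted p = 0.0115) or control library 2 (0.0496) was left out, with upper-quartile scaling (0.0372) and without the filter on low counts (0.0247). Hsd17b7, a ketoreductase of the same complex, lay between 17.2 and 22.0 CPM in control and between 17.5 and 20.6 CPM with JAG1 (log2 0.04 ± 0.11, adjusted p = 0.808, edgeR). Ebp, the sterol isomerase, lay between 143 and 152 CPM in control and between 131 and 147 CPM with JAG1 (log2 -0.08 ± 0.06, adjusted p = 0.224, edgeR).

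The last steps moved in opposite directions. Sc5d, lathosterol oxidase, at chr9:42251592-42264300, was at 88.8, 79.4 and 82.8 CPM in control and at 171, 151 and 165 CPM with JAG1. The lowest JAG1-overexpressing library was well above the highest control library, and Sc5d rose 1.94-fold (log2 0.96 ± 0.06, adjusted p = 3.29e-07, edgeR), the largest called rise among the sterol enzymes whose groups did not overlap. Dhcr7, the reductase that turns 7-dehydrocholesterol, the product of Sc5d, into cholesterol, at chr7:143823167-143848410, was at 17.9, 20.3 and 19.97 CPM in control and at 14.0, 13.6 and 15.1 CPM with JAG1. Dhcr7 fell 1.36-fold without overlap (log2 -0.45 ± 0.09, adjusted p = 0.00164, edgeR). Stard4, a sterol carrier rather than an enzyme, lay between 17.2 and 18.2 CPM in control and between 17.9 and 19.9 CPM with JAG1 (log2 0.06 ± 0.08, adjusted p = 0.566, edgeR).

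Among 7 genes of fatty acid synthesis, 3 rose, 1 fell and 3 did not pass. The 3 that rose were both desaturases and Acss2, which feeds acetate into the pathway. Scd1, at chr19:44394450-44407709, and Scd2, at chr19:44293676-44306864, encode stearoyl-CoA desaturases, which make monounsaturated fatty acids; Scd2 is the form that prevails in brain. Scd1 was at 56.8, 56.7 and 57.3 CPM in control and at 114, 118 and 121 CPM with JAG1. It rose 2.06-fold with very little spread in either group (log2 1.05 ± 0.06, adjusted p = 4.27e-08, edgeR). Scd2, the gene with the most reads of all 30, was at 844, 783 and 834 CPM in control and at 1347, 1401 and 1412 CPM with JAG1, a 1.69-fold rise (log2 0.76 ± 0.05, adjusted p = 2.57e-07, edgeR). The read ratio of Scd2 to Scd1 was 13.8 to 14.9 in control and 11.7 to 11.9 with JAG1, lower in every JAG1-overexpressing library than in any control library. No 50-base word in the last 500 bases of either gene occurs in another gene.

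Acss2, at chr2:155518043-155562743, encodes the cytosolic enzyme that makes acetyl-CoA from acetate. It had 4, 2 and 1 reads in the control libraries and 34, 32 and 36 reads in the JAG1-overexpressing libraries, or 0.197, 0.107 and 0.0523 CPM against 1.69, 2.20 and 2.19 CPM. The control libraries were around the limit of detection of 3 reads and the JAG1-overexpressing libraries were clear of it, where among the 30 genes Tm7sf2 alone had a lower mean. The fitted rise was 15.8-fold (log2 3.99 ± 0.42, adjusted p = 1.09e-05, edgeR). Its control counts were under the minimum count of 10, so that Acss2 passed the filter only through the JAG1-overexpressing libraries, where it was high. Neither the adjusted p nor the interval below allows for this. Pooled over libraries, 7 reads stood against 102, a ratio of 16.6 after scaling to library size, with an exact 95% interval for counting error of 7.75 to 42.2. Exons of Acss2 overlap exons of Gss, Ggt7 and Acss2os on the opposite strand, for which the same limit on strand holds. No value was read for Acss2os, so that its part in the Acss2 reads was not tested. Gss had a log2 fold change of -0.18 (adjusted p = 0.0470, edgeR), and Ggt7 had at most 1 read in any library.

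Acly, ATP-citrate lyase, makes most cytosolic acetyl-CoA from citrate. It was at 119.7, 122 and 139 CPM in control and at 111, 109 and 115 CPM with JAG1, a 1.14-fold fall (log2 -0.19 ± 0.07, adjusted p = 0.0306, edgeR). The groups did not overlap, but the call was lost without control library 3 (adjusted p = 0.0972), without JAG1-overexpressing library 1 (0.0903) or library 2 (0.0902), and with library size alone as the scaling (0.0528). Acaca, acetyl-CoA carboxylase, lay between 21.1 and 23.3 CPM in control and between 22.2 and 26.3 CPM with JAG1 (log2 0.14 ± 0.09, adjusted p = 0.201, edgeR). Fasn, fatty acid synthase, was at 248, 236 and 213 CPM in control and at 213, 226 and 201 CPM with JAG1. These groups overlapped (log2 -0.12 ± 0.07, adjusted p = 0.139, edgeR), and the difference passed the threshold only when control library 3 was left out (adjusted p = 0.0229). Elovl6, which elongates palmitate, lay between 66.0 and 73.1 CPM in control and between 74.2 and 77.7 CPM with JAG1, without overlap and short of the threshold (log2 0.15 ± 0.06, adjusted p = 0.0676, edgeR). It passed without control library 1 (adjusted p = 0.0173) and with library size alone (0.0467).

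Summed over genes, the sterol enzymes overlapped between the groups and the fatty acid genes did not. The 17 sterol synthesis enzymes, of which 5 rose and 4 fell, summed to 1792, 1676 and 1765 CPM in control and to 1722, 1743 and 1755 CPM with JAG1, so that the JAG1-overexpressing libraries lay within the control range. The 7 fatty acid genes summed to 1365, 1286 and 1331 CPM in control and to 1889, 1959 and 1948 CPM with JAG1. Most of that difference was Scd2, and without it the sums were 497 to 521 CPM in control and 536 to 558 CPM with JAG1, which still did not overlap. That remainder was Scd1, which like Scd2 lies on chromosome 19. Without both, a sum added after seeing the data, the other 5 genes lay between 439.8 and 464 CPM in control and between 415 and 439.7 CPM with JAG1, so that the direction turned and the groups all but touched. The 5 regulators summed to 319 to 337 CPM in control and 329 to 366 CPM with JAG1, with overlap. All 30 genes together took 3306 to 3493 CPM in control and 3984 to 4089 CPM with JAG1.

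**Figure D3:**
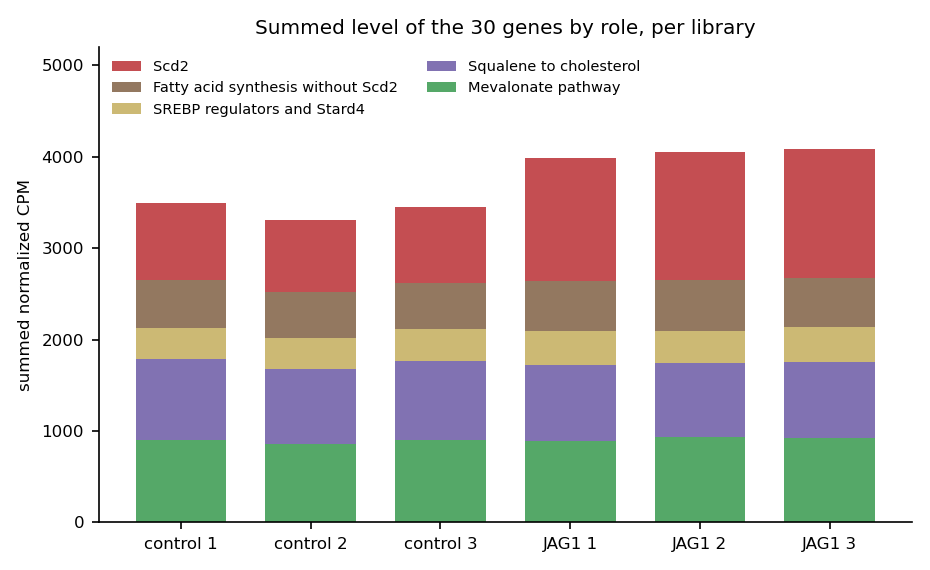
Summed normalized CPM of the 30 genes in each library, stacked by role (bars start at 0; no error, since each bar is 1 library). The sterol segments reach 1676 to 1792 CPM in control and 1722 to 1755 CPM in JAG1-overexpressing libraries, while the Scd2 segment grows from 783 to 844 CPM to 1347 to 1412 CPM.

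Genes of chromosomes 15 and 19 were shifted together, and 5 of the 30 genes lie there. On chromosome 19, 313 of 422 tested genes (74.2%) were higher with JAG1 and the median log2 fold change was 0.61; on chromosome 15, 345 of 458 (75.3%) were lower and the median was -0.53. For each of the 18 remaining chromosomes, X included, the median was between -0.12 and 0.05. Chromosome Y had only 7 tested genes, of which 4 rose and 3 fell, and their median was 0.98. Scd1, Scd2 and Tm7sf2 are on chromosome 19, and Sqle and Srebf2 are on chromosome 15. Against their own chromosome, Scd1 stood at the 85.8th percentile, Scd2 at the 65.9th and Sqle at the 40.6th, whereas Srebf2 stood at the 86.9th percentile of chromosome 15.

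The nearest tested genes were then set beside these 5. Among the 20 tested genes nearest to Sqle, 16 fell and 2 rose, with a median log2 fold change of -0.58 beside -0.62 for Sqle, and 9 of them were below it. Around Tm7sf2, 16 of 20 rose, with a median of 0.55 beside its 0.50. Around Srebf2, 15 of 20 fell, with a median of -0.32, and 17 of them were below Srebf2 at -0.05. Scd1 and Scd2 are adjacent among tested genes. Around Scd1, 16 of 20 rose, with a median of 0.61, and 17 were below Scd1 at 1.05; around Scd2, 12 of 20 were below it at 0.76. Sqle and Scd2 were near the middle of their surroundings, and Srebf2 and Scd1 toward the top of theirs. The cause of the shift of these chromosomes, was not tested. Of the 25 genes on other chromosomes, 8 rose (32.0%) and 4 fell (16.0%), beside 27.4% and 27.7% of all tested rows. In all 48.0% of them were called, beside 55.1% of all tested rows. Their median log2 fold change was 0.09, and they summed to 2173 to 2284 CPM in control and 2267 to 2300 CPM with JAG1. Among these 25 genes, Acss2 stood highest, at the 99.2nd percentile of chromosome 2. Sc5d followed at the 95.6th of chromosome 9, Idi1 at the 92.5th of chromosome 13 and Srebf1 at the 92.1st of chromosome 11. The lowest were Fdft1, at the 19.3rd percentile of chromosome 14, and Dhcr7, at the 20.9th of chromosome 7.

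**Figure D4:**
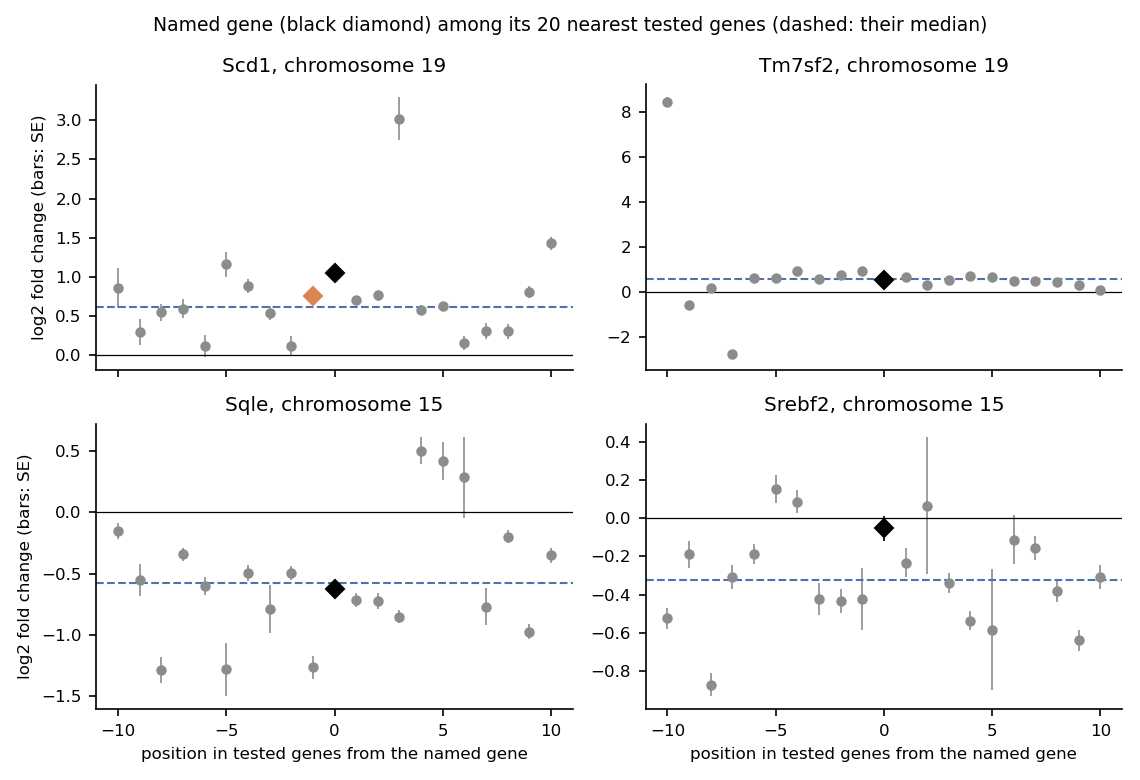
Log2 fold change (JAG1-overexpressing over control; bars: standard error) of Scd1, Tm7sf2, Sqle and Srebf2 (black diamonds) among the 20 nearest tested genes, by order along the chromosome; the orange diamond is Scd2, dashed lines are the medians of the 20 (0.61, 0.55, -0.58 and -0.32), and the vertical scales differ. Sqle and Tm7sf2 sit near the dashed line, while Scd1 and Srebf2 sit above it.

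Promoter sequence was read for a common feature of genes that moved. SREBP factors bind a sterol regulatory element next to boxes for the general factors NF-Y and Sp1. Windows from 250 bases before to 50 bases after the start of transcription (RefSeq, GRCm38.p6) were on hand for 24 of the 30 genes, all but Fdps, Fdft1, Sqle, Stard4, Scd1 and Scd2. They were searched on both strands for TCACNCCAC, a form of the sterol regulatory element, for CCAAT (NF-Y) and for GGGCGG (Sp1); none of these motifs contains another. TCACNCCAC was found in 1 of the 24 genes, Hmgcs1, beside 1.44% of 27025 genes with a promoter window. CCAAT was found in 20 of 24 genes (83.3%), beside 41.1% of all genes and 44.0% of tested genes. GGGCGG was found in 20 of 24 (83.3%), beside 38.2% of all genes and 69.8% of tested genes. Of the 7 genes with a window that rose, none held TCACNCCAC, and neither did the 14 that did not pass; the match was in 1 of the 3 that fell. A match is a run of letters, not a bound site, and the lack of one says only that these letters are not in the window. The 200 bases before the start are printed, in the direction of the gene, for Hmgcs1, the gene with the match, and for Acss2, Sc5d and Insig1, the called rises with the largest change and separate groups among genes with a single window outside chromosomes 15, 18 and 19. Capitals mark the matches on either strand: TCACCCCAC once in Hmgcs1, CCAAT or its complement ATTGG, and GGGCGG or its complement CCGCCC. Hmgcs1 lies on the plus strand (chr13:119690151-119690350), Acss2 on the plus strand (chr2:155517843-155518042), Sc5d on the minus strand (chr9:42264301-42264500) and Insig1 on the plus strand (chr5:28071212-28071411).
Hmgcs1: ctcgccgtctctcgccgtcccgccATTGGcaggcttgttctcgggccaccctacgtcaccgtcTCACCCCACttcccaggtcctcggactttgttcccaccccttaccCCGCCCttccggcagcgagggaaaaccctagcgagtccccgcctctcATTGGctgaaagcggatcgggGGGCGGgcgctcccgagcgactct
Acss2: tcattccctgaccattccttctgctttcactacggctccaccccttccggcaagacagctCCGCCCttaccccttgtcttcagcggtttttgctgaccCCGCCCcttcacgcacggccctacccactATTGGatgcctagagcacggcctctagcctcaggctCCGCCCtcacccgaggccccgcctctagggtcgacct
Sc5d: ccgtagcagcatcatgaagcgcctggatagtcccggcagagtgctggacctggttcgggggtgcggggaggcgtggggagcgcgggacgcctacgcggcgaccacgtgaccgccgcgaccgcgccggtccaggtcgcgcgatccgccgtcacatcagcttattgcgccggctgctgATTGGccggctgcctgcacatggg
Insig1: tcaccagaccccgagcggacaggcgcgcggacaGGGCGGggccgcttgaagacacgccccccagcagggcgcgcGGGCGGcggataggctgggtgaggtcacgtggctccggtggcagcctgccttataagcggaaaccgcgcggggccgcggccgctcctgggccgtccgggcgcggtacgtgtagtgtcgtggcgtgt
Hmgcs1, which fell, and Acss2, Sc5d and Insig1, which rose, all held CCAAT and GGGCGG in the full windows searched; some of these matches, such as a CCAAT of Insig1 and the GGGCGG matches of Sc5d, lie wholly or partly outside the bases printed.

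Other genes of lipid metabolism, from lists that hold none of the 30, were read from the same fit. Over all tested rows 27.4% rose and 27.7% fell, 55.1% in all. Of the tested genes of each list, in the order given here and in the next paragraph, 50.0%, 50.0%, 50.0% and 84.6% were called. Of 10 further sterol and isoprenoid enzymes, 5 rose and 0 fell in edgeR; in counts added after seeing the data, at an unadjusted p under 0.05, 5 were higher and 2 lower, and the counts were 4 and 0 with DESeq2 and 5 and 1 with limma-voom. The largest rises were those of Acat1, the mitochondrial thiolase, from 105 ± 30.6 to 160.2 ± 7.90 CPM (log2 0.61 ± 0.16, adjusted p = 0.00758, edgeR), and of Coq2, which makes coenzyme Q, from 11.5 to 15.5 CPM (log2 0.43 ± 0.09, adjusted p = 0.00274, edgeR). Of 10 genes that process or accompany SREBP, 3 rose and 2 fell. Erlin1, which helps to restrain SREBP in the endoplasmic reticulum and lies on chromosome 19, rose from 17.0 ± 4.91 to 37.97 ± 2.31 CPM (log2 1.16 ± 0.16, adjusted p = 0.000102, edgeR). Mbtps2, a protease that releases SREBP, rose from 11.01 to 14.8 CPM (log2 0.42 ± 0.11, adjusted p = 0.00916, edgeR). Both that fell, the ubiquitin ligase Rnf139 (log2 -0.50 ± 0.06) and the transcription factor Sp1 (log2 -0.33 ± 0.05), lie on chromosome 15.

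Of 20 other genes of fatty acid and glycerolipid synthesis, 18 were tested, 7 rose and 2 fell. Elovl4, which elongates very long fatty acids, rose from 4.48 to 10.5 CPM (log2 1.23 ± 0.20, adjusted p = 0.000333, edgeR). Fads3, a desaturase-like gene on chromosome 19, rose from 116 to 176 CPM (log2 0.61 ± 0.05, adjusted p = 1.83e-06, edgeR), the same as the median of its chromosome. The genes that fell were Dgat1, which makes triglycerides and lies on chromosome 15 (log2 -0.42 ± 0.07), and Lpin1, a phosphatidate phosphatase (log2 -0.35 ± 0.10, adjusted p = 0.00985, edgeR). Of 16 genes of sterol uptake, transport, storage and export, 13 were tested, 6 rose and 5 fell. Abca1, the cholesterol exporter and a target of the sterol-sensing LXR receptors, had 27, 15 and 7 reads in control and 209, 166 and 183 reads with JAG1 (log2 3.69 ± 0.26, adjusted p = 4.06e-07, edgeR). Mylip, an LXR target that degrades lipoprotein receptors, had 14, 10 and 10 reads against 31, 48 and 27 (log2 1.84 ± 0.37, adjusted p = 0.00151, edgeR). Nr1h3, which encodes the receptor LXRα, fell from 3.60 to 1.80 CPM (log2 -0.99 ± 0.22, adjusted p = 0.00284, edgeR). Stard3, a late endosomal sterol carrier, fell from 25.4 to 16.4 CPM (log2 -0.63 ± 0.09, adjusted p = 0.000128, edgeR). Vldlr and Abcg1 had no read in any library.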

How the data were processed

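RNA from 3 control and 3 JAG1-overexpressing libraries of Ink4a/Arf-/- astrocytes, prepared with the QuantSeq 3' kit, was measured. For each library the authors deposited a table of 23282 genes with raw read counts and, in a further column, log2 values of normalized reads; only the counts were used. The submitters' processing notes name Bowtie2, bedtools, edgeR and the builds GRCm38 and mm10, without versions or roles; strand setting and the treatment of reads with several matches are not given in the sources used here. Symbols were matched to RefSeq GRCm38.p6 (22058 by symbol, 1071 by synonym, 153 by neither), and transcript ends to GENCODE M21.

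Library totals lay between 14341634 and 20489062 counts, of which ribosomal RN45S took 4.38% to 5.16%. Counts were analysed in R 4.3.3 with edgeR 4.0.16. Rows were kept by filterByExpr (minimum count 10), followed by TMM scaling and the quasi-likelihood test of JAG1-overexpressing against control libraries, with Benjamini-Hochberg adjustment over 11712 rows and a threshold of 0.05. SE was derived from the F statistic. The procedure was tested on simulated data in which few genes changed, equally up and down. In the real data 55.1% of rows were called, so that the simulation gives no error rate for them. Alternatives were DESeq2 1.42.0, limma-voom (limma 3.58.1), upper-quartile scaling, library size alone, no filter, removal of RN45S, a 2-fold limit, a replicate block and leaving out each library. The 30 genes, all of which are named, and the other lists were chosen with earlier results of these data known; counts over them are descriptions. Of the other lipid lists, the called genes with the 2 largest rises and falls and a mean of at least 1 CPM were named, and some genes with no read, marker genes, and named genes that share sequence or exons with one of the 30 were added after their values were seen. Acss2os was named without a value.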

Additional observations from a re-analysis of the deposited data

How the results depend on the processing

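Over 13 alternatives, 22 of the 30 genes kept their direction and their side of the threshold in every one. The exceptions among called genes were Idi1 and Acly. Nsdhl, Fasn and Elovl6 passed under some alternatives. Near 0, Hsd17b7 ranged from -0.037 to 0.14 on the log2 scale with single libraries left out and turned negative without control library 1 (-0.037) or 2 (-0.0043) or JAG1-overexpressing library 2 (-0.00063) or 3 (-0.0032). Mvd ranged from -0.042 to 0.14 and turned without control library 3 (-0.042), and Srebf2 ranged from -0.085 to 0.012 and turned without JAG1-overexpressing library 2 (0.012). With single libraries left out, 9 to 11 of the 30 genes rose and 4 to 6 fell, and of further sterol and isoprenoid enzymes 3 to 7 were called in either direction, 3 without JAG1-overexpressing library 3. A 2-fold limit left 639 higher and 994 lower of 3211 and 3247 rows, 2 higher and 0 lower of the 30 genes, 0 in the mevalonate pathway, 0 from squalene to cholesterol, 0 among regulators, 2 for fatty acid synthesis, 0 of the further sterol enzymes, 1 of the SREBP processing genes, 1 of the further fatty acid genes and 2 of the uptake and export genes. Rows called numbered 5927 with DESeq2 and 6886 without a filter, and the share of higher calls stayed between 46.3% and 51.5% over scalings.

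Same-numbered libraries had deviation correlations of 0.148, 0.0614 and 0.119. Pairs across the groups with unlike numbers lay between -0.144 and 0.0109, so that every library correlated best, across the groups, with its own number. Whether same-numbered libraries were prepared together is not given in the sources used here, and was not tested. The replicate block called 6711 rows in place of 6458, and of the 30 genes only Nsdhl changed side (log2 -0.30, adjusted p = 0.0269). The counts for genes off chromosomes 15 and 19 were chosen after seeing the data. Depth limits Acss2 in control libraries and Tm7sf2 throughout. The limit on strand also holds for Hmgcs1, Idi1, Lss, Scap and Elovl6. Their exons overlap opposite-strand exons of other genes by 557, 323, 381, 985 and 34 bases. Of the 50-base words in the last 500 bases, 22.4% for Acaca and 8.73% for Elovl6 occur in pseudogenes. Values of these other loci were not read.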

Other observations

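The control libraries differed more than the JAG1-overexpressing libraries for a few lipid genes, picked after their values were seen. This was not particular to lipid genes. Over all genes with reads, chi-square per degree of freedom between 2 libraries was 4.49 to 12.6 within control and 3.22 to 4.36 within JAG1-overexpressing libraries. The larger control values, 5.87 and 12.6, were those of pairs with control library 1. This measure grows with read depth, and JAG1-overexpressing libraries 2 and 3 had the fewest reads. The correlation of log2 CPM was 0.994 between control libraries 2 and 3 and 0.992 to 0.993 within JAG1-overexpressing libraries. The astrocyte marker Gja1, picked in the same way, was at 116, 149 and 188 CPM in control. Control library 1 was the lowest for Idi1 (11.6, 27.7 and 47.0 CPM), for Acat1 (73.0, 109 and 134 CPM), for Osbp, an oxysterol-binding protein (4.94, 10.2 and 10.9 CPM), for Erlin1 (12.2, 16.8 and 22.0 CPM) and for Srebf1 (18.9, 24.5 and 26.3 CPM). In the JAG1-overexpressing libraries, Acat1 was at 156, 155 and 169 CPM and Osbp at 15.4, 18.2 and 17.1 CPM, above every control library. Osbp rose with a log2 fold change of 0.96 (adjusted p = 0.00324, edgeR). Like Erlin1 it lies on chromosome 19, where the median was 0.61.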
